A study of Mus musculus with 18 samples.

Results

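The acute-phase proteins followed here are 9 genes: the serum amyloid A genes Saa1, Saa2 and Saa3, the siderophore-binding lipocalin Lcn2, the long pentraxin Ptx3, haptoglobin (Hp), the leucine-rich glycoprotein Lrg1, and the serine protease inhibitor genes Serpina3n and Serpina3g. They are 9 of the 55401 gene IDs counted, and all 9 were among the 27525 genes that passed the filter on low counts. They were taken as a list of names, and the list was drawn up with their changes against uninfected glands already known, so every value of these 9 against hour 0 below is a description and carries no test. Their course over time was known too. An adjusted p for these 9 between infected groups is that of the fit over all genes, not independent evidence.

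RNA was sequenced from stromal cells sorted for gp38 (podoplanin, encoded by Pdpn), a surface protein of fibroblasts, out of the salivary glands of wild-type Balb/c mice aged 8 to 12 weeks. In the infected groups the submandibular duct had been cannulated and a replication-defective adenovirus 5 infused (a model in which the gland forms ectopic lymphoid tissue). The dose is given only as a range, 100000000 to 1000000000 plaque-forming units, the same for all infected libraries. There were 6 groups of 3 libraries, each library with its own replicate number: uninfected (hour 0), and 3 hours, 1 day, 2 days, 8 days and 23 days after the virus. No group had been cannulated without virus, so cannulation and virus cannot be told apart.

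Acute-phase proteins are best known as plasma proteins that the liver secretes when interleukin 6 and interleukin 1 reach it, through STAT3, C/EBP and NF-kB factors acting at their genes. Several are also made outside the liver, by fibroblasts, epithelium and leukocytes at the site of injury. They bind microbes, iron carriers, haemoglobin or proteases.

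The libraries held 4398234 to 15234431 counts. They fell into a pair of sets that follow the replicate numbers: hour 3, day 8 and day 23 (numbers 1 to 9) and hour 0, day 1 and day 2 (10 to 18). Summed over 1502 sensory receptor genes, which stroma should not express, the level was 0.00179 to 0.0111 CPM per kb (CPM are counts scaled to library size) in the first set and 0.0421 to 0.209 in the second. Within the second set it was 0.0421 to 0.0829 on day 1, 0.0947 to 0.141 at hour 0 and 0.193 to 0.209 on day 2. Comparisons among these groups are therefore not at equal background. In the first set hour 3 (0.00718 to 0.0111) lay above day 8 and day 23. Library set and time are confounded and cannot be told apart in hour 3, day 8 or day 23 against hour 0, in day 1 against hour 3, or in day 8 against day 2. Pdpn itself was at 60.3 ± 6.07 CPM (SD, n = 3) at hour 0 and 825 ± 99.6 at hour 3. The fibroblast gene Pdgfra was at 1916 ± 145 CPM at hour 0 and 182 ± 23.5 on day 1. The 2 genes thus went opposite ways on day 1, when Pdpn was at 427, 201 and 384 CPM. At hour 3 Pdgfra was at 2603, 2350 and 2615 CPM. These are bulk libraries of sorted cells, so fewer cells of a type and less RNA per cell cannot be told apart.

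The stretches just before the start of the genes are shown because the factors above are known to bind elements there. They are from RefSeq on GRCm38.p6, which had entries for 8 of the 9 members (none for Hp; the stretch of Lcn2 lies in an annotated exon and is not shown). Capitals mark matches to C/EBP TTGCNNAA, STAT TTCNNNGAA, the IL-6 type 2 element CTGGGAA and the NF-kB consensus, on both strands. The stretches are Saa1 at chr7:46742981-46743230, minus strand; Saa2 at chr7:46751583-46751789, plus strand; Saa3 at chr7:46715701-46715926, minus strand; Ptx3 at chr3:66219637-66219886, plus strand; Lrg1 at chr17:56122002-56122196, minus strand; Serpina3n at chr12:104406458-104406707, plus strand; and Serpina3g at chr12:104235897-104236146, plus strand.
Saa1: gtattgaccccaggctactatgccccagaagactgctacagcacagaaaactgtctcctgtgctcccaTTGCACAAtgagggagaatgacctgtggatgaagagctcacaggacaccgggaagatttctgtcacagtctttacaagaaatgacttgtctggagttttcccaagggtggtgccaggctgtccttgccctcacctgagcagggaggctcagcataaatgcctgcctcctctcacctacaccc
Saa2: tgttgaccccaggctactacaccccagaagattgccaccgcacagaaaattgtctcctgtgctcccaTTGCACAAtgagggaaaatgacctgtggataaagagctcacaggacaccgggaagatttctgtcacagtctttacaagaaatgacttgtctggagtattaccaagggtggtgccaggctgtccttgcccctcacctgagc
Saa3: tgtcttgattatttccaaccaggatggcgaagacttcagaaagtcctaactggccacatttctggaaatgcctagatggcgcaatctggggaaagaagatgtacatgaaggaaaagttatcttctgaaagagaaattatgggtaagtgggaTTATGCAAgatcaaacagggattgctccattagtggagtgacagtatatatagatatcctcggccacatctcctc
Ptx3: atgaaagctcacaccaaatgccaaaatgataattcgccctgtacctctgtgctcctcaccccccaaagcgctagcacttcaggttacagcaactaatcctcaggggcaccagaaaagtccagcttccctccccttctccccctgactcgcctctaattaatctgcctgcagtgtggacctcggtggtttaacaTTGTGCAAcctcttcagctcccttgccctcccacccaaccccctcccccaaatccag
Lrg1: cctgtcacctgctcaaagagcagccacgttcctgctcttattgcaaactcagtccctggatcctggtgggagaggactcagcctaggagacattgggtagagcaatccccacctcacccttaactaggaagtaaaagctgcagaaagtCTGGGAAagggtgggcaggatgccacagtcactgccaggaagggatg
Serpina3n: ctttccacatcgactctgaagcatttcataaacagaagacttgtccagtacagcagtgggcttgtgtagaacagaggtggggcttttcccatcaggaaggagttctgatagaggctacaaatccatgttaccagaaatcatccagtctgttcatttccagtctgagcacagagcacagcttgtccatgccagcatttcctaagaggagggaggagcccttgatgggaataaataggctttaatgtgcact
Serpina3g: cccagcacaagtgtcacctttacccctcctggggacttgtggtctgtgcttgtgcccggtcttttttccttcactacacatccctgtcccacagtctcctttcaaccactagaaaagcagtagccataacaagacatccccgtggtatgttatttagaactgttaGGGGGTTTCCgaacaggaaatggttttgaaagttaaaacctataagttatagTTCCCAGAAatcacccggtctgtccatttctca

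The C/EBP letters stood in 5 of the 8 members with an entry (62.5%) and in 9.56% of all 32851 promoters of 250 bases. They lay 182 to 175 bases before the RefSeq start of Saa1, 183 to 176 before that of Saa2, 99 to 92 before Saa3, 216 to 209 before Lcn2 and 57 to 50 before Ptx3. This spacing was chosen after a first search with one more base between the arms (TTGCNNNAA, in 8.29% of promoters) had matched 2 members, Ptx3 and Lrg1, so the share is a description. Serpina3g held a STAT match 33 to 25 bases before its start, overlapped by an IL-6 type 2 match (33 to 27), and an NF-kB match (85 to 76). Lrg1 held the IL-6 type 2 letters (102 to 96), and Serpina3n held none of these. STAT letters stood in 7.02%, IL-6 type 2 letters in 9.1% and the NF-kB consensus in 7.25% of all promoters. The stretches of Saa1 and Saa2 were 95.6% identical over their 250 bases, against 59.4% for Saa1 and Saa3.

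Ptx3 and Lrg1 were at their highest 3 hours after the virus. Ptx3, a secreted pattern recognition protein that binds C1q and microbes (ENSMUSG00000027832, GRCm38 chromosome 3, 66219910 to 66225805), was at 2.32, 5.65 and 19.9 CPM in the uninfected libraries and at 3637, 4949 and 3873 CPM at hour 3. It was at 1177, 438 and 1028 CPM on day 1, 309, 292 and 189 on day 2, 26.6, 10.7 and 25.3 on day 8 and 46.4, 12.6 and 22.2 on day 23. From hour 3 to day 8 the groups did not overlap, each being below the one before, while day 8 and day 23 overlapped each other and hour 0. The log2 fold change against hour 0 was 8.78 ± 0.61 (SE) at hour 3, 6.54 ± 0.56 on day 1 and 4.80 ± 0.52 on day 2. Without uninfected replicate 12, the highest of the 3, the hour 3 value was 10.05.

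Between infected groups, Ptx3 fell by 2.24 ± 0.45 on the log2 scale from hour 3 to day 1 (edgeR adjusted p = 0.000206). It fell by 1.74 ± 0.45 from day 1 to day 2 (edgeR adjusted p = 0.00611, DESeq2 adjusted p = 0.0707) and by 3.66 ± 0.49 from day 2 to day 8 (edgeR adjusted p = 9.51e-07).

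Lrg1, a secreted glycoprotein that modifies TGF-beta signalling in endothelium (ENSMUSG00000037095, chromosome 17, 56119678 to 56122001), was listed at 0, 0.904 and 0.165 CPM at hour 0 and at 21.8, 26.7 and 30.1 CPM at hour 3. It was at 10.3, 3.12 and 15.6 CPM on day 1, 7.34, 2.5 and 2.39 on day 2, 9.39, 13 and 9.97 on day 8 and 0.356, 4.35 and 2.83 on day 23. Every library from hour 3 to day 8 was above every uninfected library, and day 8 lay above day 2 with no overlap. The log2 fold change against hour 0 was 6.27 ± 0.74 at hour 3 and 4.99 ± 0.73 on day 8, and without uninfected replicate 11, which held most of the uninfected counts, the hour 3 value was 8.02. The decrease from hour 3 to day 1 (log2 fold change -1.43 ± 0.53, edgeR adjusted p = 0.03) was not called with DESeq2 (adjusted p = 0.062) or with scaling by library totals (-0.18, edgeR adjusted p = 0.779). The increase from day 2 to day 8 (1.43 ± 0.56, edgeR adjusted p = 0.0283) was likewise not called with DESeq2 (adjusted p = 0.142).

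**Figure D1:**
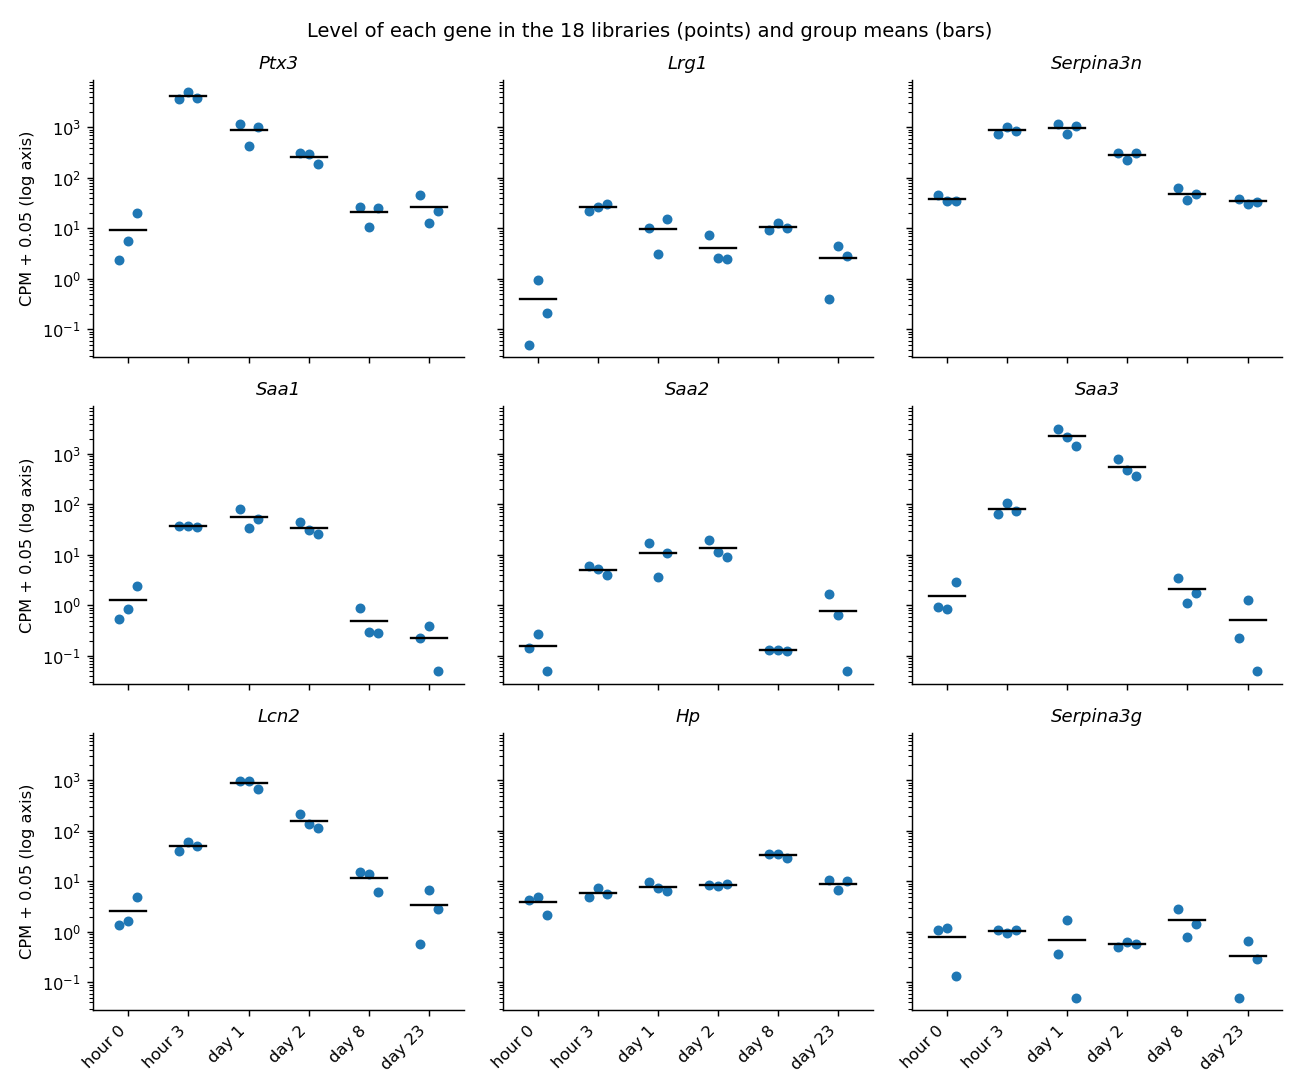
CPM of each gene in each of the 18 libraries (points, with 0.05 added, log axis) and the group means (bars), by time after the virus. Ptx3 lies between 3637 and 4949 CPM at hour 3, Saa3 between 1419 and 3185 on day 1 and Hp between 28.8 and 34.8 on day 8, and Serpina3g is at or below 2.83 CPM throughout.

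Saa3 and Lcn2 were highest on day 1. Saa3, the serum amyloid A that is made mainly outside the liver in mice (ENSMUSG00000040026, chromosome 7, 46711998 to 46715700), was at 0.868, 0.791 and 2.8 CPM at hour 0, 63.1, 104 and 73.1 at hour 3, and 3185, 2210 and 1419 on day 1. It was at 803, 479 and 366 CPM on day 2, 3.49, 1.05 and 1.7 on day 8, and 0.178, 1.22 and 0 on day 23. The day 1 libraries were above those of every other group, and day 8 and day 23 overlapped hour 0. Against hour 0 the log2 fold change of Saa3 was 5.67 ± 0.45 at hour 3, 10.50 ± 0.52 on day 1 and 8.45 ± 0.49 on day 2. Without uninfected replicate 12, the day 1 value was 11.39.

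From hour 3 to day 1 Saa3 rose by 4.82 ± 0.39 on the log2 scale (edgeR adjusted p = 2.82e-11). It fell by 2.05 ± 0.34 from day 1 to day 2 (edgeR adjusted p = 8.9e-05) and by 8.04 ± 0.47 from day 2 to day 8 (edgeR adjusted p = 2.99e-13), which is a 264-fold lower level.

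Lcn2, a lipocalin that takes iron from bacteria by binding their siderophores (ENSMUSG00000026822, chromosome 2, 32384633 to 32388252), was at 1.35, 1.58 and 4.78 CPM at hour 0, 40.1, 61.4 and 49.2 at hour 3, and 959, 973 and 689 on day 1. It was at 220, 138 and 113 CPM on day 2, 15.3, 13.9 and 6.18 on day 8 and 0.534, 6.61 and 2.83 on day 23. Unlike Saa3, every day 8 library of Lcn2 was above every uninfected library. The log2 fold change against hour 0 was 4.23 ± 0.44 at hour 3, 8.35 ± 0.50 on day 1, 5.87 ± 0.46 on day 2 and 2.14 ± 0.44 on day 8, and without uninfected replicate 12 the day 1 value was 9.21. Lcn2 rose by 4.12 ± 0.39 from hour 3 to day 1 (edgeR adjusted p = 9.23e-10), then fell by 2.48 ± 0.36 to day 2 (edgeR adjusted p = 1.84e-05) and by 3.73 ± 0.39 from day 2 to day 8 (edgeR adjusted p = 1.77e-08). The decrease from day 8 to day 23 (-1.63 ± 0.44, edgeR adjusted p = 0.0252) was lost when replicate 1 or 2 of day 8, or 7 or 9 of day 23, was left out (adjusted p of 0.0685 to 0.0761).

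Because both genes were counted in the same libraries, their ratio needs no scaling. There were 1.49 to 1.70 counts of Saa3 for each of Lcn2 at hour 3, 2.06 to 3.32 on day 1 and 3.25 to 3.66 on day 2. Lcn2 gave 0.0110 to 0.0127 counts for each of Ptx3 at hour 3 and 0.670 to 2.22 on day 1, and Saa3 gave 0.0174 to 0.0211 and 1.38 to 5.05. The order of Ptx3 and Saa3 counts was thus opposite in every hour 3 and every day 1 library.

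**Figure D2:**
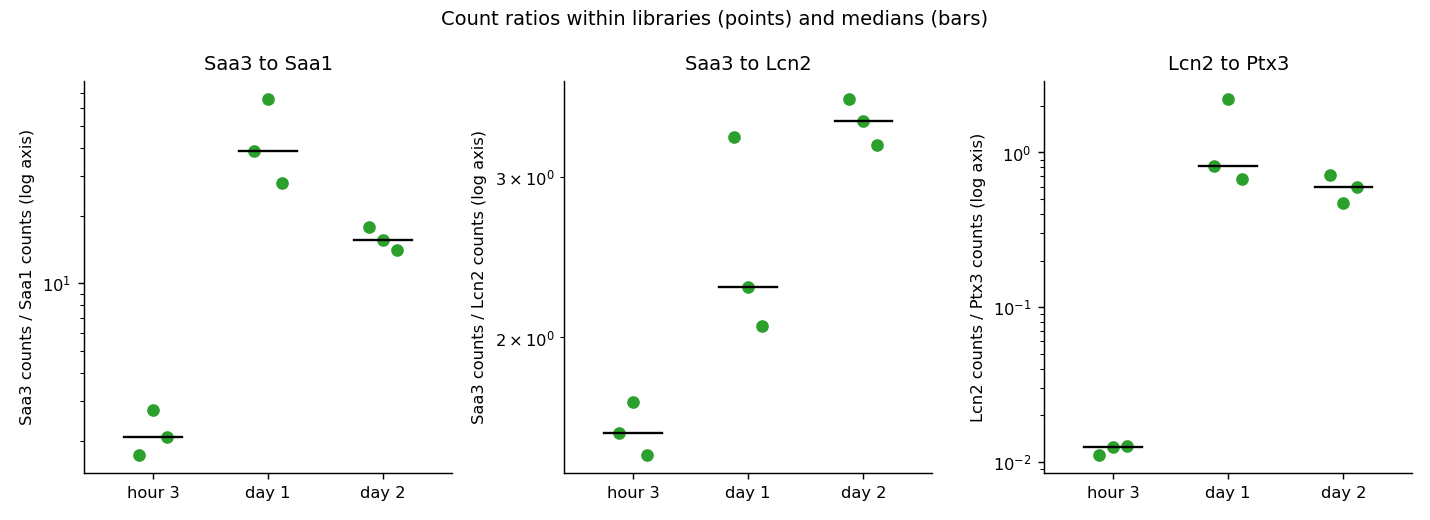
Ratios of counts between pairs of genes in each library (points) and group medians (bars) at hour 3, day 1 and day 2, on log axes. The ratio of Saa3 to Saa1 lies between 1.72 and 2.74 at hour 3, between 27.8 and 66.1 on day 1 and between 14.1 and 17.8 on day 2.

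Saa1 and Saa2 encode the serum amyloid A proteins that travel on high-density lipoprotein in plasma. Saa1 (ENSMUSG00000074115, chromosome 7, 46740497 to 46742980) was at 0.482, 0.791 and 2.39 CPM at hour 0, 36.6, 38 and 35.1 at hour 3, 81.8, 33.4 and 51 on day 1 and 45.1, 30.8 and 26 on day 2. It was at 0.831, 0.243 and 0.232 CPM on day 8 and 0.178, 0.348 and 0 on day 23. The hour 3, day 1 and day 2 libraries overlapped one another and were all above hour 0. The log2 fold change against hour 0 was 4.83 ± 0.43 at hour 3, 5.43 ± 0.43 on day 1 and 4.72 ± 0.42 on day 2, and without uninfected replicate 12 the day 1 value was 6.44. The steps from hour 3 to day 1 (0.60 ± 0.33, edgeR adjusted p = 0.129) and day 1 to day 2 (-0.71 ± 0.33, edgeR adjusted p = 0.111) did not pass, and Saa1 fell by 6.26 ± 0.48 from day 2 to day 8 (edgeR adjusted p = 4.42e-11). Other settings called both of the first steps: hour 3 to day 1 with library totals (1.86, edgeR adjusted p = 1.55e-05), no filter (adjusted p = 0.0379) or only the groups compared (0.022), and day 1 to day 2 with no filter (adjusted p = 0.00165), limma-voom (0.0397) or only the groups compared (0.0468). The lower level on day 8 than at hour 0 (-1.54 ± 0.57) was -0.52 without uninfected replicate 12, and the lower level on day 23 (-2.41 ± 0.75) was -1.40; neither was then called.

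Saa2 (ENSMUSG00000057465, chromosome 7, 46751790 to 46754313) held 3 counts in all over the uninfected libraries and 3 over those of day 8, so no fold is given between these groups. It was at 5.98, 5.13 and 3.98 CPM at hour 3, 17.5, 3.56 and 11.1 on day 1, 19.5, 11.5 and 9.05 on day 2, and 1.6, 0.609 and 0 on day 23. Its ratio to hour 0 was 52.5 at hour 3 (95% exact interval 17.5 to 258, counting error only), 114 on day 1 (38.7 to 555) and 133 on day 2 (45 to 648). Day 2 was 158 times day 8 (53.6 to 771). There were 6.13 to 8.81 counts of Saa1 for each of Saa2 at hour 3, 4.60 to 9.39 on day 1 and 2.32 to 2.87 on day 2.

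The coding transcripts of Saa1 and Saa2 were 94.4% identical. Of the 50-base windows of the Saa1 transcript, 14.8% also occurred in another gene, against 9.12% for Saa2 and 1.78% for Saa3, so the split of reads between Saa1 and Saa2 is uncertain. Windows of Lcn2, Ptx3, Hp and Lrg1 were not shared with another gene.

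Serpina3n, an inhibitor of serine proteases such as cathepsin G (ENSMUSG00000021091, chromosome 12, 104406729 to 104414329), was at 45.3, 34.7 and 34.7 CPM at hour 0, also the highest uninfected level per kb of coding transcript among the 9 (18.5 ± 2.97 CPM per kb). It was at 727, 1042 and 853 CPM at hour 3, 1189, 750 and 1046 on day 1, 309, 227 and 315 on day 2, 62.4, 36.7 and 48 on day 8 and 38.6, 31.1 and 34 on day 23. The hour 3 and day 1 libraries overlapped, both were above day 2, and the last 2 groups overlapped hour 0. Against hour 0 Serpina3n had log2 fold changes of 4.51 ± 0.23 at hour 3, 4.70 ± 0.24 on day 1 and 2.89 ± 0.22 on day 2. It did not pass from hour 3 to day 1 (0.19 ± 0.20, edgeR adjusted p = 0.444; with library totals 1.45, adjusted p = 2.45e-06). It fell by 1.81 ± 0.21 from day 1 to day 2 (edgeR adjusted p = 5.06e-07) and fell by 2.53 ± 0.21 from day 2 to day 8 (edgeR adjusted p = 2.91e-10).

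Its paralog Serpina3g (ENSMUSG00000041481, chromosome 12, 104236245 to 104241939) was at 0.0825 to 1.13 CPM at hour 0, 0.92 to 1.04 at hour 3, 0 to 1.65 on day 1, 0.449 to 0.595 on day 2, 0.729 to 2.83 on day 8 and 0 to 0.609 on day 23. It was called in none of the 11 comparisons by edgeR, 0 by DESeq2 and 0 by limma-voom. The unadjusted p was under 0.05 in 0 comparisons with edgeR, 0 with DESeq2 and 1 with limma-voom. No change passed at this depth. Its libraries did not overlap between day 2 and day 8, day 8 and day 23, or hour 3 and day 23. These groups held 13, 61, 8 and 23 counts on day 2, day 8, day 23 and at hour 3. The Serpina3n and Serpina3g transcripts were 80.4% identical, and 6.9% and 16% of their 50-base windows occurred in other genes, mostly of the same cluster.

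Hp, which binds free haemoglobin (ENSMUSG00000031722, chromosome 8, 109575128 to 109579172), had another course. It was at 4.24, 4.97 and 2.14 CPM at hour 0, 4.81, 7.23 and 5.65 at hour 3, 9.72, 7.38 and 6.33 on day 1 and 8.39, 8.09 and 8.84 on day 2. It was at 34.7, 34.8 and 28.8 CPM on day 8 and 10.5, 6.7 and 9.91 on day 23. Every day 8 library was above every other library, and the neighbouring groups from hour 3 to day 2 overlapped. Relative to hour 0 the log2 fold change of Hp was 0.65 ± 0.32 at hour 3, 1.06 ± 0.31 on day 1 and 3.12 ± 0.32 on day 8. The calls of days 1 and 2 were lost without uninfected replicate 12 (0.76 and 0.87), and that of day 1 also without replicate 13 (0.87). Hp rose by 1.95 ± 0.30 from day 2 to day 8 (edgeR adjusted p = 7.17e-06) and by 2.47 ± 0.31 between hour 3 and day 8, which belong to 1 library set (edgeR adjusted p = 1.72e-07), and fell by 1.87 ± 0.30 from day 8 to day 23 (edgeR adjusted p = 0.00032).

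**Figure D3:**
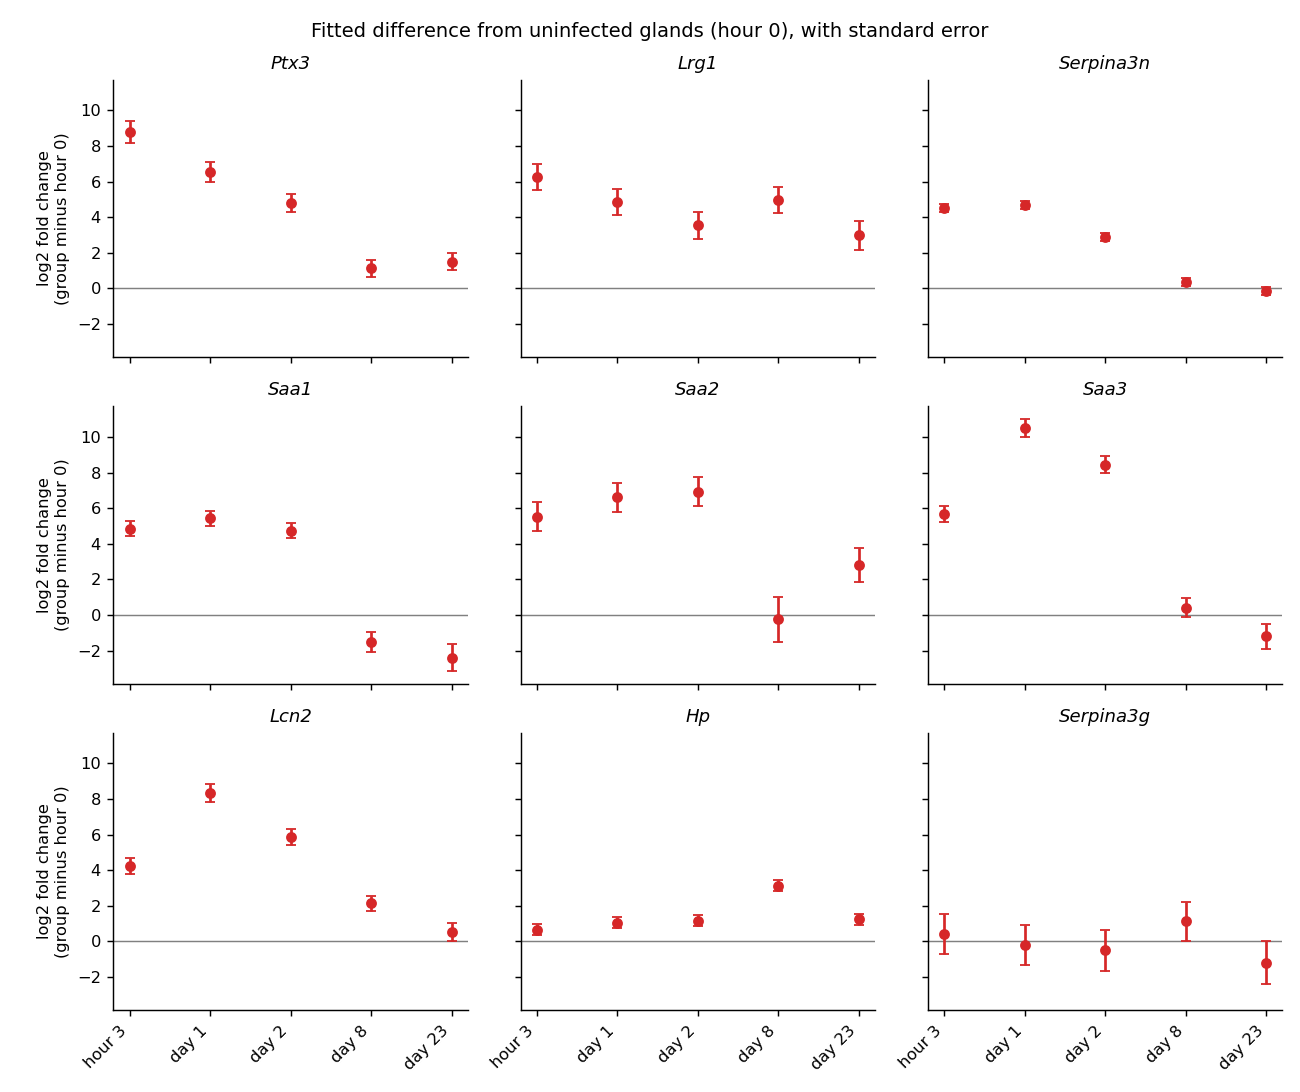
Log2 fold change of each gene against hour 0 with its standard error, by time after the virus. Saa3 reaches 10.50 on day 1 and Ptx3 8.78 at hour 3, and Hp has its largest value, 3.12, on day 8; Saa2 rests on 3 uninfected counts.

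Counted over the 9 genes, 7 were called higher than hour 0 at hour 3 (16.9% of all genes tested were), 8 on day 1 (9.67%), 8 on day 2 (5.13%), 3 on day 8 (11.2%; Lcn2, Hp and Lrg1) and 4 on day 23 (8.52%; Saa2, Ptx3, Hp and Lrg1). With only the groups compared in the fit, 4 of the 9 members (Lcn2, Ptx3, Hp and Serpina3n) passed the filter for day 23 and none was called. None was called lower at the first 3 times (43.1%, 12.8% and 9.63% of all genes), and Saa1 was on day 8 (32.7%) and day 23 (25.4%). A call is an edgeR adjusted p under 0.05. These shares stand beside the counts as a description, since the genes were chosen on these comparisons. The median log2 fold change of the 9 was 4.83, 5.43, 4.72, 1.13 and 0.51 in time order, and that of all genes tested was -1.41, -0.41, 0.29, -0.68 and -0.53. Together the 9 genes took a mean of 0.00690% of uninfected libraries, 0.279% after 3 hours, 0.654% on day 1, 0.202% on day 2, 0.0119% on day 8 and 0.00697% on day 23.

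In the steps between infected groups, 2 members rose (27.5% of all genes did) and 2 fell (16.8%) from hour 3 to day 1. With scaling by library totals alone, 6 rose and 1 fell in that step (Saa1, Saa2, Hp and Serpina3n were then called higher too, and Lrg1 was not called), and the median of all genes moved by 1.17. From day 1 to day 2, 4 fell (11.2%) and none rose (12%). From day 2 to day 8, 6 fell (43.3%) and 2 rose (18%). From day 8 to day 23, 3 fell (3.08%), namely Hp, Lcn2 and Lrg1, and none rose (2.25%). The decrease of Lrg1 (-2.01 ± 0.59, edgeR adjusted p = 0.0401) was lost without replicate 2 or 3 of day 8 or 7 or 9 of day 23 (adjusted p of 0.0636 to 0.124). Within the set of libraries numbered 1 to 9, 6 members were lower on day 8 than at hour 3 (14.1%), Hp was higher (16.5%), 7 were lower on day 23 than at hour 3 (14.3%), and none was higher (15.7%).

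**Figure D4:**
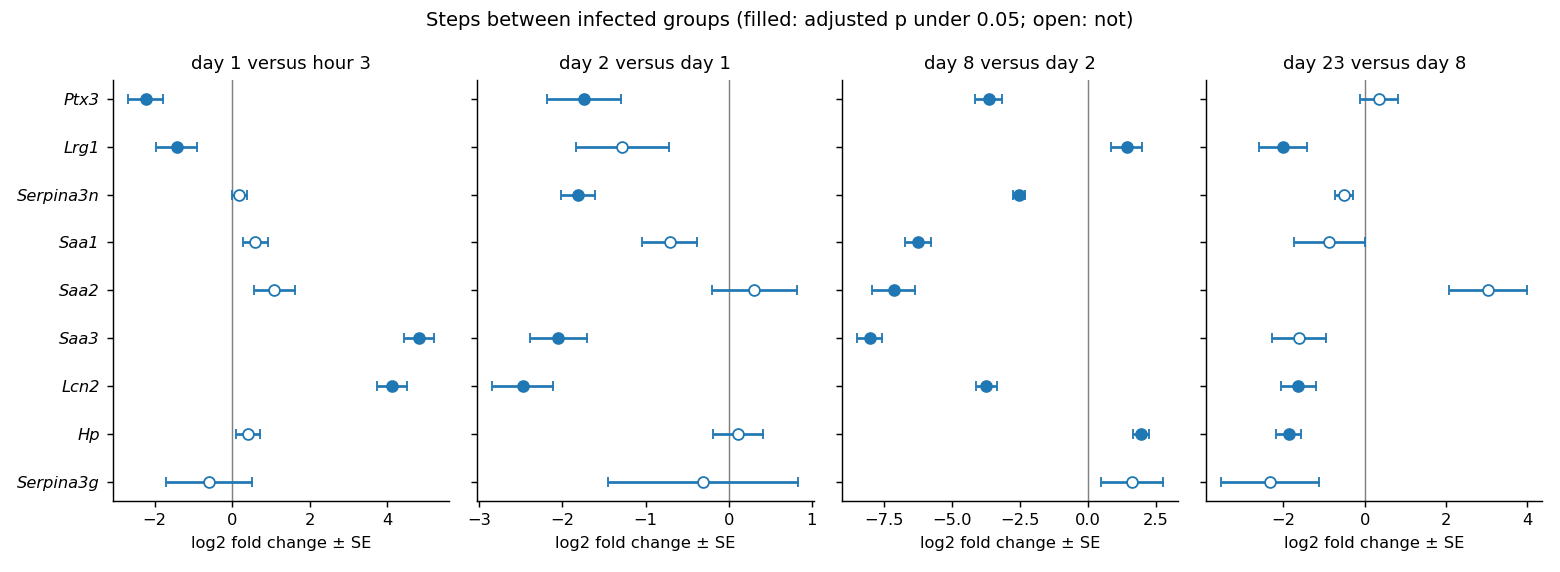
Log2 fold change with its standard error for each gene in each step between infected groups; filled points have an edgeR adjusted p under 0.05, and panels have their own axes. Saa3 and Lcn2 are up by 4.82 and 4.12 from hour 3 to day 1 while Ptx3 is at -2.24, and Hp is up by 1.95 from day 2 to day 8.

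Per kb of coding transcript, Saa3 on day 1 had the highest mean level, 4093 ± 1594 CPM per kb (SD, n = 3), followed by Ptx3 at hour 3 with 2188 ± 368. Lcn2 was at 955 ± 175 and Serpina3n at 482 ± 109 on day 1. The highest group means of the others were 91.0 for Saa1 on day 1, 24.4 for Hp on day 8, 20.5 for Saa2 on day 2, 18.6 for Lrg1 at hour 3 and 0.914 for Serpina3g on day 8. The order of the highest genes depends on the length used. Per kb of all annotated exons, Ptx3 at hour 3 (1549 ± 261) was above Saa3 on day 1 (872 ± 339). On that scale Serpina3n (482 ± 109) was above Lcn2 (333 ± 61.2) on day 1.

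The genes most like each member in their course were taken as those with the smallest mean absolute difference of centred log2 CPM over the 18 libraries, among 10449 genes. For Ptx3 these were the chemokines Ccl7 (0.51) and Ccl2 (0.72), with a median of 3.10 over all genes compared. For Saa3 they were Lcn2 (1.54) and Cxcl5 (1.59; median 4.38), for Saa1 Timp1 (0.73) and Slfn4 (0.81; median 3.07), and for Saa2 Mx1 (0.72) and Mmp13 (0.72; median 2.32). Serpina3n was nearest to the interferon-induced genes Ifit3 (0.32) and Ifit3b (0.34; median 2.06), and Hp to Emb (0.34) and Cybb (0.38; median 0.91).

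Of 30 inducers of the acute-phase response (cytokines, receptors and factors), 25 rose and 1 fell at hour 3 against hour 0, 20 rose and 1 fell on day 1, 14 and 3 on day 2, 10 and 0 on day 8, and 7 and 1 on day 23. Over all genes tested, 16.9% rose and 43.1% fell at hour 3, 9.67% and 12.8% on day 1, 5.13% and 9.63% on day 2, 11.2% and 32.7% on day 8, and 8.52% and 25.4% on day 23. This list and those below were also chosen with earlier results of these data known. Il1b, Lif, Serpina3f, Cfb, Tnfaip6 and Hmox1 were picked from them for their wide range over these libraries, so their adjusted p values are a description. Those of Il6, Cebpb, Stat3 and Cebpd are a description too, because their list was chosen with earlier results known. The median log2 fold change of the inducers at hour 3 was 2.95, against -1.41 over all genes tested. Il6, the main cytokine inducer, went from 21.9 ± 21.9 CPM (SD, n = 3) to 8331 ± 2312 at hour 3 (log2 fold change 8.55 ± 0.62, edgeR adjusted p = 3.98e-12) and was at 130 ± 45.6 on day 1, when Saa3 and Lcn2 were highest. Cebpb, a C/EBP factor, went from 82.8 ± 4.44 to 1188 ± 40.5 CPM at hour 3 (3.84 ± 0.25, edgeR adjusted p = 4.4e-13) and was at 483 ± 150 on day 1. Stat3 rose by 2.93 ± 0.17 at hour 3 (edgeR adjusted p = 5.91e-14). Il1b rose by 5.27 ± 0.44 at hour 3 (edgeR adjusted p = 8.04e-11) and by 4.22 ± 0.44 on day 8 (edgeR adjusted p = 6.23e-08), with 21.6 ± 3.35 CPM on day 8.

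Of 37 other acute-phase proteins and Serpina3 paralogs with a gene ID, 32 were tested: 15 rose and 5 fell at hour 3, 10 and 4 on day 1, 6 and 2 on day 2, 4 and 10 on day 8, and 5 and 10 on day 23. The day 8 counts are near the shares over all genes (11.2% and 32.7%). So are the counts that fell on days 1, 2 and 23 (12.8%, 9.63% and 25.4% of all genes). Serpina3f, a further paralog of Serpina3n, rose by 6.47 ± 0.49 at hour 3, from 2.00 to 178 CPM (edgeR adjusted p = 9.91e-12). Cfb, complement factor B, rose by 4.34 ± 0.38 on day 1 (edgeR adjusted p = 4.06e-10). Crp and Apcs, the short pentraxins, did not pass the filter on low counts. Of 23 receptors and binding partners of the member proteins, 21 were tested, and 9 rose and 5 fell at hour 3, 4 and 3 on day 1, 4 and 3 on day 2, 8 and 7 on day 8, and 5 and 5 on day 23. The counts that fell on days 1, 8 and 23 are near the shares over all genes (12.8%, 32.7% and 25.4%). Tnfaip6, a matrix partner of Ptx3, rose by 4.78 ± 0.29 at hour 3 (edgeR adjusted p = 7.7e-14), and Hmox1, which degrades haem, by 5.43 ± 0.28 (edgeR adjusted p = 4.31e-15).

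Markers of cells that could carry these transcripts moved too. Neutrophil markers (12 genes, summed) were at 9.74 to 17.5 CPM at hour 0, 38.6 to 50.5 at hour 3 with Ly6g and Elane at 0, 6.71 to 16.8 on day 1, 25.9 to 40.0 on day 2, 7.96 to 15.2 on day 8 with 4 of the 12 at 0, and 0.236 to 2.67 on day 23 with 8 at 0. At hour 3, 4 of the 9 neutrophil markers tested were called higher and 4 lower than at hour 0 (16.9% and 43.1% of all genes). S100a9 alone was at 21.4 CPM at hour 3. The part of neutrophils in the levels of Lcn2 and Saa3 was not tested, and these sums are also set across library sets whose background differs. Macrophage and monocyte markers (10 genes) were at 20.8 to 35.7 CPM at hour 0 and 141 to 165 on day 8, the group in which Hp was highest, and none of them was at 0; their part in the Hp level was not tested. Epithelial and acinar markers (12 genes) were at 2448 to 5430 CPM at hour 0, 447 to 666 on day 1 and 8251 to 18480 on day 8; their part was not tested. Hepatocyte markers (8 genes) were at 11.2 to 17.9 CPM at hour 0, 0.649 to 2.37 at hour 3 with Alb, Ttr and Tat at 0, 6.85 to 10.1 on day 1 with Alb at 0, 22.8 to 29.9 on day 2 with none at 0, 0.486 to 0.773 on day 8 with Tat at 0, and 0.348 to 1.07 on day 23 with 4 at 0. The hepatocyte sums were highest on day 2, then at hour 0, on day 1 and at hour 3. Sensory receptor genes had the same order: 0.193 to 0.209, 0.0947 to 0.141, 0.0421 to 0.0829 and 0.00718 to 0.0111 CPM per kb. The part of hepatocytes and that of background reads were not tested. The 10 T, NK and B cell markers summed to at most 22.9 CPM in any library. The 9 endothelial markers were at 37.1 to 56.3 CPM at hour 0 and 130 to 157 on day 8, when Hp was highest. On day 8, 5 of the 9 were called higher than at hour 0 (11.2% of all genes) and 1 lower (32.7%). The 6 mural markers were at 767 to 1175 CPM at hour 0, 1735 to 2025 at hour 3 and 112 to 127 on day 1. Cspg4 alone reached a group mean of 1728 CPM, so the hour 3 sum is mostly this gene. Against hour 0, 1 mural marker was called higher and 2 lower at hour 3 (16.9% and 43.1% of all genes). On day 1, 2 were called higher and 4 lower (9.67% and 12.8%). The 10 fibroblast markers were at 24570 to 29032 CPM at hour 0, 43132 to 43976 at hour 3 and 11068 to 15042 on day 1. The part of these 3 lists in the members' levels was not tested.

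**Figure D5:**
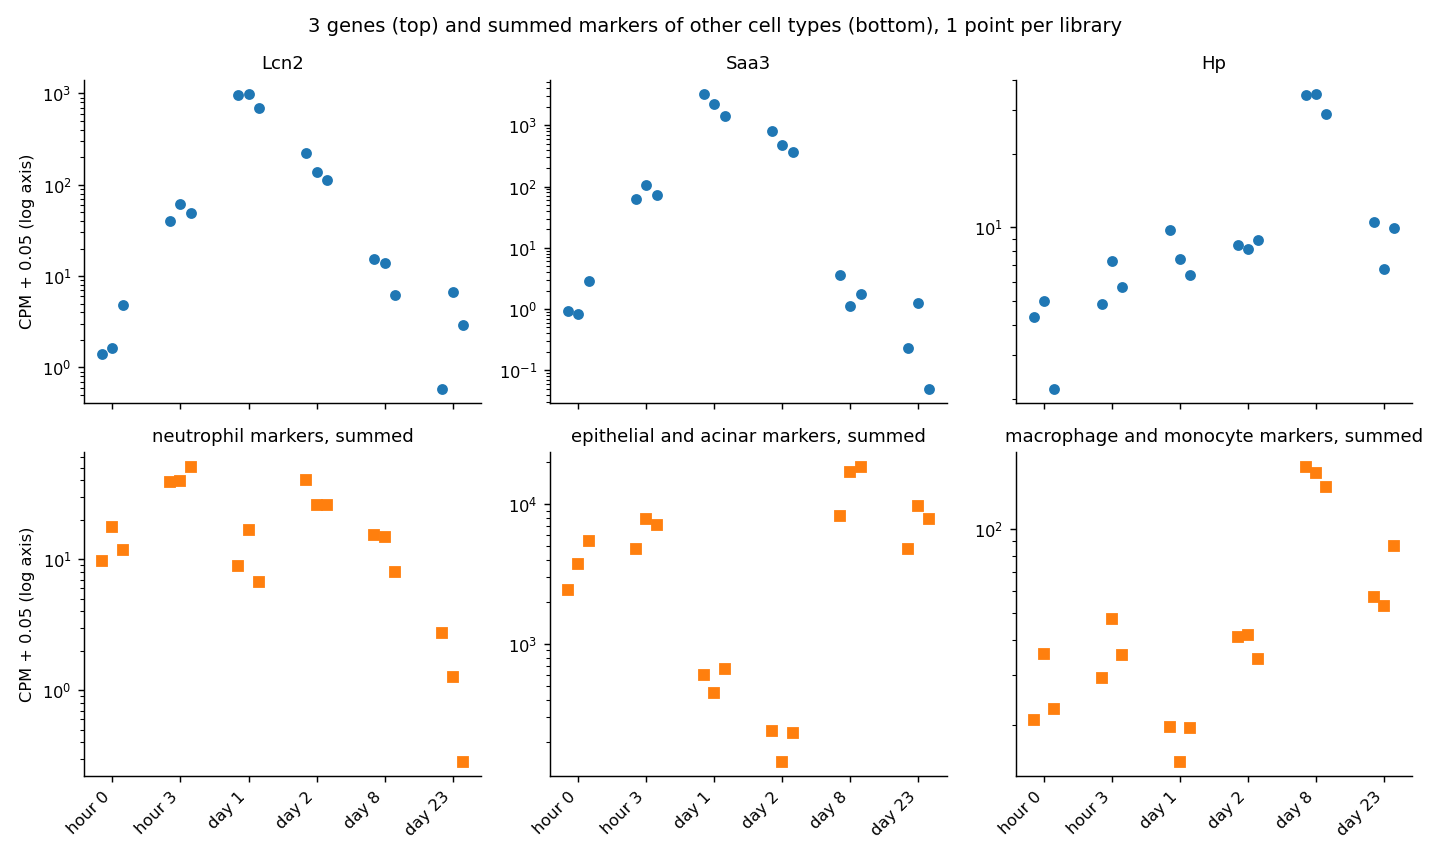
CPM of Lcn2, Saa3 and Hp (top) and summed CPM of neutrophil, epithelial and acinar, and macrophage and monocyte markers (bottom) in each library, with 0.05 added, on log axes. At hour 3, 4 of the 9 neutrophil markers tested were called higher and 4 lower than at hour 0 (16.9% and 43.1% of all genes). Macrophage and monocyte markers lie at 141 to 165 CPM on day 8, when Hp is at 28.8 to 34.8, and neutrophil markers are at 38.6 to 50.5 at hour 3 and 6.71 to 16.8 on day 1, when Lcn2 is at 40.1 to 61.4 and 689 to 973; their part was not tested.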

How the data were processed

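Gene counts were deposited by the authors, 1 file per library, and are raw counts; per the submitters' processing notes, FastQC, STAR, Subread, DESeq2 and mm10 were used, with no versions. The annotation release, strand setting and treatment of reads with several matches are not given in the sources used here. Of 55401 gene IDs, 55141 matched GENCODE M21 (GRCm38); the other 260 held 0.0241% of counts. No 2 libraries held identical counts.

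All 18 libraries entered 1 fit in edgeR 4.0.16 (R 4.3.3): TMM scaling, filterByExpr (minimum count 10, minimum total 15; 27525 genes), quasi-likelihood tests and Benjamini-Hochberg adjustment over all genes tested, with a call at an adjusted p under 0.05. The standard error is the log2 fold change divided by the square root of F. CPM are scaled by TMM, and log2 CPM used a prior count of 2. A group with 3 or fewer counts gets a ratio with a 95% exact interval, or no fold. Counts come from reads without molecular identifiers, so intervals cover counting error only. Alternatives were DESeq2 1.42.0, limma-voom (limma 3.58.1), DESeq2 size factors, library totals, other filters, only the groups compared, and leaving out each library; leaving out the day 2 libraries was added after seeing the data.

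The members and lists were chosen with earlier results of these data known. Named are all members, Il6, Stat3, Socs3, Cebpb, Cebpd, Nfkbiz, S100a8, S100a9, Pdpn and Pdgfra, up to 4 genes per list with the widest range of group means among genes with a highest group mean of at least 10 CPM, and 2 genes of like pattern per member; Crp and Apcs were named after their values were seen. Genes picked by range also had to pass an F test over the groups (adjusted p under 0.05), so their p values are a description. Not every gene the rule allows is described. On simulated counts for hour 3 against hour 0 (13533 genes), 100% of genes with a log2 change of 2 were called, 40% to 42% of those with a change of 1 and 0.06% of unchanged genes. The simulation gave every gene the same spread, left out genes with low counts and changed few genes, equally up and down. The real libraries differ in these respects, so the shares need not hold for them.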

Additional observations from a re-analysis of the deposited data

How the results depend on the processing

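No direction of a member's called change reversed under any alternative run. The count of members called at day 23 against hour 0 (5) was the least stable: 3 with a filter of 5 CPM in 3 libraries, 1 with limma-voom, 0 of the 4 that passed the filter with only the groups compared, 3 without the day 2 libraries, and 3 to 4 with 1 library left out. From day 8 to day 23 (3 members) it was 6 with no filter, 1 with limma-voom, 1 with only the groups compared and 1 to 4 with 1 library left out; from hour 3 to day 1 (4 members) it was 7 with library totals. Inducers called at day 8 (10) were 16 with no filter and 6 to 10 with 1 library left out; at day 23 (8) they were 3 with only the groups compared, 5 without day 2 and 5 to 9 with 1 left out. Other acute-phase proteins called at day 2 (8) were 16 with limma-voom. At day 8 (14) they were 5 with the 5 CPM filter, 7 with only the groups compared and 6 to 13 with 1 left out. At day 23 (15) they were 6 with the 5 CPM filter, 7 with limma-voom, 3 of 15 tested with only the groups compared, 9 without day 2 and 5 to 15 with 1 left out. The cause was not tested. Library totals moved the share of calls that were higher from 28.1% to 7.1% at hour 3 and from 34.7% to 66.0% at day 2. No paired analysis was possible because each replicate number, 1 to 18, belongs to 1 library, so groups share none. Saa2 and Serpina3g are limited by depth.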

Other observations

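Other genes of the inducer list had courses of their own. Lif, a cytokine of the interleukin 6 family, was at 10.8 ± 10.7 CPM (SD, n = 3) at hour 0 and 3494 ± 682 at hour 3. It rose by 8.32 ± 0.56 at hour 3 (edgeR adjusted p = 8.26e-13). Socs3, the feedback inhibitor of STAT3 signalling, was at 2007 ± 119 CPM at hour 3 and at 478 ± 79.3 at day 1, against 460 ± 78.9 at hour 0. Cebpd rose by 2.69 ± 0.20 at hour 3 (edgeR adjusted p = 6.97e-12) and by 1.11 ± 0.19 at day 23 (edgeR adjusted p = 0.000219). S100a9, a neutrophil marker, was at 21.4 ± 2.6 CPM at hour 3 and 0.475 ± 0.316 at day 1. S100a9 alone is not taken to stand for its list. Of the 9 neutrophil markers tested, 4 were called higher and 4 lower at hour 3 than at hour 0. Of all genes, 16.9% and 43.1% were, so the count called lower is near the share over all genes.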
